A study of Homo sapiens with 12 samples.

Results

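The annotated antisense transcripts are RNAs that a gene catalogue types as antisense, transcribed from the strand opposite to a known gene. They were taken from the annotated lncRNA (long non-coding RNA) values by that type, leaving out symbols that start with SNHG and HOTAIRM1. This gave 981 of the 2819 annotated lncRNA transcripts, belonging to 757 genes, after 14 antisense transcripts were left out by symbol. Cells labelled HEL, a human erythroleukaemia line from acute myeloid leukaemia, were compared as 3 control and 3 DMAG libraries of RNA depleted of ribosomal RNA. The treated cells had received 40 µg/ml of DMAG, a glucoside of a dimethylated ellagic acid (3,8-Di-O-methylellagic acid) from the burnet Sanguisorba officinalis, for 3 days. For the controls the labels give no dose, day or vehicle, and no genotype or added gene is recorded for either group. The series title places the compound in slowed proliferation and megakaryocytic differentiation of leukaemia cells. The labels do not say that the libraries came from separate cultures, so p-values cover the spread among these 6 libraries, which may be technical.

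Antisense RNAs arise in several ways. Many start at the promoter of a protein-coding gene and run away from it (divergent transcripts, some named with -DT after the gene). Others begin inside or beyond the gene and cross it. Names with -AS and a number are given to both kinds. In RefSeq, INTS6-AS1 and HERPUD2-AS1, for example, start beside their gene without overlapping it. Many of the divergent transcripts are kept at low levels by the nuclear exosome. It degrades them soon after early termination by the Integrator complex or the cleavage and polyadenylation machinery. Neither decay nor termination was measured here. Some antisense RNAs stay stable and act on the neighbouring gene, on chromatin, or as hosts of small RNAs. An antisense RNA that pairs with its sense partner can also form double-stranded RNA, which the cell edits or senses.

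The promoters of 3 pairs are shown because their antisense RNA and partner gene start back to back and share part of the same window, while the partners went different ways with DMAG. INTS6-AS1 and COPB2-DT are among the largest rises described below, and HERPUD2-AS1 is one of the pairs with both members higher. The first pair has the partner lower, and the other pairs have it higher. The INTS6 and COPB2 pairs were chosen for display after their values were seen. Each sequence runs 5′ to 3′ on the gene's own strand, from 250 bases before to 50 bases after the start that RefSeq gives on GRCh38.p14. Capitals mark the bases that lie in both windows of a pair, read there from opposite strands.

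INTS6-AS1 (chr13:51453095-51453394, plus strand): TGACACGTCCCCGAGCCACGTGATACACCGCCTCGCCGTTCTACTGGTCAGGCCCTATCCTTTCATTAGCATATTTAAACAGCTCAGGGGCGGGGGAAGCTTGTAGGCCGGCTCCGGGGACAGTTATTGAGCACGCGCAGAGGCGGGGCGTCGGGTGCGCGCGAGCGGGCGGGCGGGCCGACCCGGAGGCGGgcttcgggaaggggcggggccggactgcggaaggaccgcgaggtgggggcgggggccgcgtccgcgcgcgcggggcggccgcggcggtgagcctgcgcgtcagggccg
INTS6 (chr13:51452987-51453286, minus strand): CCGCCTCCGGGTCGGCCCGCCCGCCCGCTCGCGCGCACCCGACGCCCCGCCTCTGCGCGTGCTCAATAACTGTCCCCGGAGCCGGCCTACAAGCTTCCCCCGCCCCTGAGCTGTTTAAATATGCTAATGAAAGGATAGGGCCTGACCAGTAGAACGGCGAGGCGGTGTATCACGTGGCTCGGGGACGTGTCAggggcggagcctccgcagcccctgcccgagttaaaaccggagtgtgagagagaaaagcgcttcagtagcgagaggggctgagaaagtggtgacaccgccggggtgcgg
COPB2-DT (chr3:139389553-139389852, plus strand): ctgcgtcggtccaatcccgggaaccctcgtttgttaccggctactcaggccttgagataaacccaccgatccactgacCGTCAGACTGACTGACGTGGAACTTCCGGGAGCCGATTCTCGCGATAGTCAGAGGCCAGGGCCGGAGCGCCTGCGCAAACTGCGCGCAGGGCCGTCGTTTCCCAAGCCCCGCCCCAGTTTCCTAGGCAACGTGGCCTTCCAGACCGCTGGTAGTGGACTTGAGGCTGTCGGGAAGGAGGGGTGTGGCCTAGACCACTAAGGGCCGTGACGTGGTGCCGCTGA
COPB2 (chr3:139389631-139389930, minus strand): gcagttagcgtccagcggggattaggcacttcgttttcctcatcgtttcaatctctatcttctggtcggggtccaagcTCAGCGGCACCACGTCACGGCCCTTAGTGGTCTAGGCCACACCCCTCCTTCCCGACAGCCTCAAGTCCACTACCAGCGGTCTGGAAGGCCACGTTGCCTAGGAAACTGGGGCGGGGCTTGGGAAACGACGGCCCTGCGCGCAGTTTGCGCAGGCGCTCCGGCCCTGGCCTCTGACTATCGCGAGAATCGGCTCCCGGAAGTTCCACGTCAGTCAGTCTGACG
HERPUD2-AS1 (chr7:35694956-35695255, plus strand): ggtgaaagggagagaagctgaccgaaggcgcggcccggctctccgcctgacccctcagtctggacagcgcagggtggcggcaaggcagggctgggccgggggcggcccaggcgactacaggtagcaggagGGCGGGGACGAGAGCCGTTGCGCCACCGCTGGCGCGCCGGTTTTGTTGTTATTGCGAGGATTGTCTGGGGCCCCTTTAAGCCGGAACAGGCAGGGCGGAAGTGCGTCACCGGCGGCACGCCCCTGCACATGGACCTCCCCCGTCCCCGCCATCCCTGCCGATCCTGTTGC
HERPUD2 (chr7:35695086-35695385, minus strand): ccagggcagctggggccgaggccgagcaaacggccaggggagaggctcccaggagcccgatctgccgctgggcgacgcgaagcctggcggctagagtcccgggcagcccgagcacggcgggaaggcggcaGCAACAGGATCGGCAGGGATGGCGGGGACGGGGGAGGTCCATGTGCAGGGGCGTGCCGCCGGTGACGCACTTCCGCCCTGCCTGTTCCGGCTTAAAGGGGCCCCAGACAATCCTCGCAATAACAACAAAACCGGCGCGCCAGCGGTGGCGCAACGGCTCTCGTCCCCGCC

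The shared stretch was 192 of 300 bases for INTS6-AS1 and INTS6, 222 of 300 for COPB2-DT and COPB2, and 170 for HERPUD2-AS1 and HERPUD2. The starts lay 309, 123 and 71 bases apart in that order, and in each pair the RefSeq gene models did not overlap. All 6 windows held GGGCGG on either strand, the core of a GC box, and none held TATAAA. Whether the authors' counting used the strand of the reads is not given in the sources used here. For antisense RNAs that overlap their partner, reads of both strands may therefore not be separated. The 3 pairs shown have no overlapping gene models in RefSeq. The positions of the counted transcripts were not read, so an overlap of those transcripts remains possible.

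Antisense transcripts were scarce RNAs. Their level is given as FPKM, a fragment count corrected for the length of the transcript and the size of the library. The median transcript had a mean of 0.870 FPKM over the 6 libraries (quartiles 0.430 and 1.86), against 1.11 FPKM for all annotated lncRNAs. Of the 981, 531 were under 1 FPKM and 23 at 10 FPKM or more, 839 had a value above 0 in all 6 libraries and 2 were listed at 0 in all of them. A further 8 were listed at 0 in the control libraries only and 12 in the DMAG libraries only. Their summed level was 1779, 1749 and 1723 FPKM in the controls and 2047, 1923 and 2028 FPKM with DMAG, so the groups did not overlap.

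How many reads lie behind each FPKM value is unknown, so no counting error can be attached. The libraries differed from their label and from each other in lineage genes. The platelet gene GP9 was listed at 0 in all 6 libraries, and GATA1 was at or below 0.142 FPKM. The 7 megakaryocyte markers had sums of 0.0691 to 0.146 FPKM in the controls and of 0.363 to 0.636 FPKM in the DMAG libraries. The 6 granulocyte precursor markers summed to 2372 to 2514 and 1567 to 1792 FPKM, but they did not move together. MPO, PRTN3, ELANE and CTSG were lower with DMAG, whereas AZU1 (mean 79.4 to 100 FPKM) and CLC (320 to 523) were higher. The 4 monocyte markers summed to 167 to 171 and 429 to 479 FPKM, nearly all of it LYZ (mean 168 to 444). ITGAM went from 1.57 to 4.68 FPKM, CD14 was at 0.114 and 0.428, and CSF1R at 0.160 and 0.118. The 10 erythroid markers summed to at most 4.78 FPKM in controls. DMAG replicate 3 stood apart with a sum of 581 FPKM, mostly from the globin genes HBA1 (375 FPKM) and HBA2 (200 FPKM). HBB, which is not in that sum, was at 1367 FPKM there and listed at 0 in the controls. The part of these differences in the antisense results was not tested.

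More antisense transcripts were higher than lower with DMAG. Of the 952 tested, those averaging 0.1 FPKM or more, 148 (15.5%) were higher and 29 (3.05%) lower at an adjusted p under 0.05 (limma on log2(FPKM + 0.1), Benjamini-Hochberg over all 2746 annotated lncRNA transcripts tested). In that whole set 12.7% were higher and 3.42% lower, 16.1% in either direction, against 18.6% of the antisense transcripts. Without DMAG replicate 1, 2 or 3 the antisense counts were 67 and 14, 77 and 13, and 84 and 24. Without control replicate 1, 2 or 3 they were 108 and 12, 115 and 15, and 110 and 19. In bulk RNA, fewer cells with a transcript and less of it per cell cannot be told apart. The shares of antisense transcripts are thus near those of annotated lncRNAs at large, and lincRNAs, which lie between genes, had 14.8% and 3.99%. The other 29 members were too low to test.

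The typical annotated lncRNA was higher with DMAG, but their summed level was not. The sums were 44997, 53946 and 54200 FPKM in the controls and 43721, 46749 and 44507 FPKM with DMAG, with overlapping groups. The median log2 change of all annotated lncRNAs was 0.20, and that of the antisense transcripts 0.21, while the mRNA genes tested had a median of -0.01. After the libraries were scaled to the same median, 90 antisense transcripts were higher and 58 lower, beside 6.63% and 7.17% of all annotated lncRNAs. The excess of higher over lower calls therefore shrank with this scaling, but antisense transcripts still had more higher than lower calls. The 90 were all among the 148, and all 29 lower transcripts stayed lower. By the values alone, 283 antisense transcripts (29.7%) had every DMAG library above every control and 100 (10.5%) below, where the background was 28% and 10.9%.

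**Figure D1:**
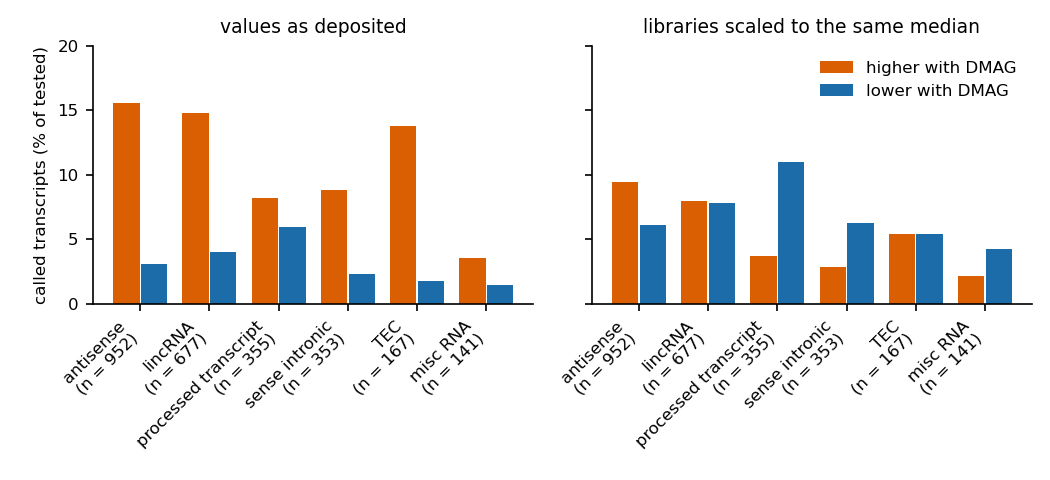
Share of tested transcripts called higher (orange) or lower (blue) with DMAG by the type of annotated lncRNA, as % of those tested, for the values as deposited (left) and after the libraries were scaled to the same median (right). Antisense transcripts had 15.5% higher and 3.05% lower as deposited; bars carry no error because each is a single count over 6 libraries.

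The transcripts called higher were about as low in the controls as antisense transcripts at large. Their median control mean was 0.757 FPKM and their median DMAG mean 2.10 FPKM. The median of all antisense transcripts was 0.752, 0.747 and 0.732 FPKM in the 3 control libraries. Of the 148, 54 had a control mean under 0.5 FPKM, a share that was not counted for all members. Those called lower were more abundant at the start, with medians of 2.90 FPKM in controls and 1.45 FPKM with DMAG. A change of at least 1 on the log2 scale was seen in 98 of the higher and 20 of the lower transcripts. Leaving out each library in turn, 58 of the 148 and 10 of the 29 were called the same way every time.

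**Figure D2:**
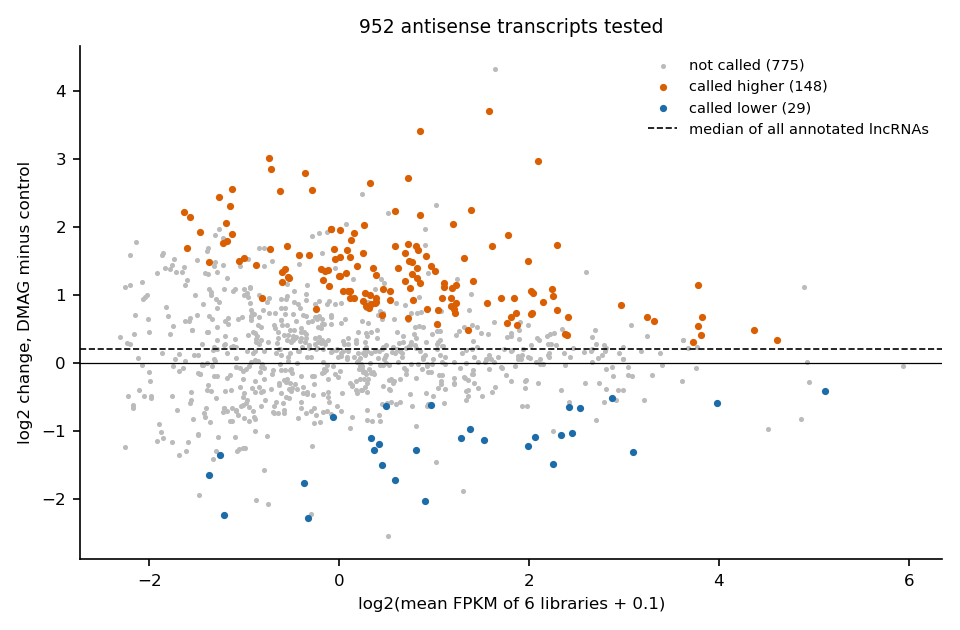
Level against change for the 952 antisense transcripts tested, with the log2 of the mean FPKM + 0.1 over 6 libraries on the x axis and the log2 change (DMAG minus control) on the y axis. The 148 called higher (orange) lie mostly at low levels, as antisense transcripts do at large, and the 29 called lower (blue) reach the abundant end. The dashed line is the median change of all annotated lncRNAs, 0.20.

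The largest called rise was in INTS6-AS1 (listed under a clone name, chr13:51453345-51454716, plus strand), which starts beside INTS6, a subunit of the Integrator complex. Its transcript ENST00000601034.2 was at 0.425, 0.426 and 0.182 FPKM in the controls and at 5.79, 5.46 and 5.10 FPKM with DMAG. All DMAG libraries lay far above the controls, a 15.8-fold difference of means (log2 change 3.70, SE 0.271, adjusted p = 0.0011). The other 3 transcripts of the gene were higher too, so INTS6-AS1 was the only antisense gene with 4 of 4 transcripts called. ENST00000610618.1 went from 0.273 ± 0.318 to 3.14 ± 0.872 FPKM and ENST00000594959.5 from 0.743 ± 0.150 to 2.61 ± 0.718 FPKM (mean ± SD, n = 3 per group, here and below). ENST00000594604.5, listed at 0 in 2 control libraries, was at 0.407, 2.04 and 0.533 FPKM with DMAG. Its call was lost without DMAG replicate 2 or 3 or control replicate 2 or 3 (adjusted p between 0.056 and 0.069).

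Summed over its 4 transcripts, INTS6-AS1 was at 1.45, 1.08 and 1.63 FPKM in the controls and at 12.1, 12.6 and 11.9 FPKM with DMAG (log2 change 3.06, SE 0.154, adjusted p = 1.8e-05). INTS6 itself was at 19.4, 17.9 and 19.1 FPKM in the controls and at 15.8, 16.7 and 16.5 FPKM with DMAG. The groups of INTS6 did not overlap, and it was 1.15-fold lower (log2 change -0.19, adjusted p = 0.017). This call was lost without DMAG replicate 1 or control replicate 3 (adjusted p = 0.054 each), and the most abundant INTS6 transcript alone had a log2 change of 0.03 (adjusted p = 0.75). The antisense RNA was thus at 1.39 ± 0.280 FPKM beside 18.8 ± 0.780 FPKM of INTS6 in the controls, and at 12.2 ± 0.353 beside 16.3 ± 0.486 FPKM with DMAG, on the same scale per length.

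**Figure D3:**
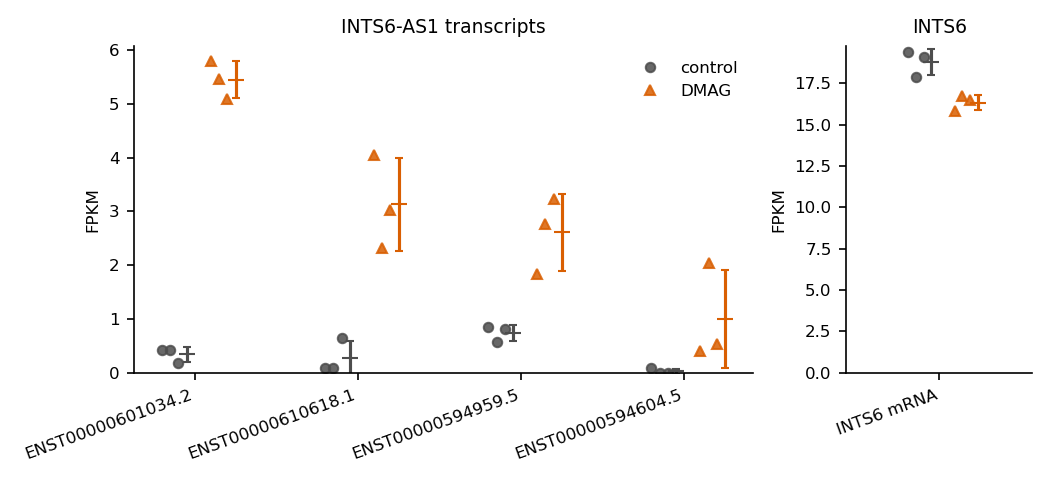
FPKM of the 4 INTS6-AS1 transcripts (left) and of INTS6 mRNA (right, own axis) in each of the 3 control (grey circles) and 3 DMAG libraries (orange triangles), with a bar and whiskers for mean ± SD. All 4 antisense transcripts sit above the controls with DMAG, and INTS6 lies at 15.8 to 16.7 FPKM below its controls.

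The next largest rises, 1 transcript per gene, were in FAM131B-AS2, TTN-AS1, TOX-DT, PCMTD1-DT, COPB2-DT, CTB-50L17.9 and RP11-561O23.8. FAM131B-AS2 (AC093673.5) was at 0.868, 0.608 and 1.18 FPKM in controls and at 8.68, 7.77 and 5.84 with DMAG, 8.39-fold higher (log2 change 2.96, SE 0.252, adjusted p = 0.002). FAM131B itself was at 0.00626 ± 0.00542 and 0.184 ± 0.0737 FPKM, too low to test. RefSeq places all 1871 bases of FAM131B-AS2 within FAM131B and on the same strand, against its type in the files, so reads of the pair may not be separable. TTN-AS1 (AC009948.3, chr2:178522827-178620217, plus strand) crosses the gene of titin, the giant spring protein of muscle. Its transcript ENST00000627564.2 went from 0.537, 0.182 and 0.350 to 2.58, 3.21 and 2.46 FPKM (7.72-fold; adjusted p = 0.0038), and its second transcript rose 3.51-fold. TTN mRNA was at 0.0180 ± 0.00239 and 0.0306 ± 0.00262 FPKM, below the level tested.

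COPB2-DT (RP11-319G6.1) starts beside COPB2, a subunit of the COPI coat of transport vesicles. Its transcript ENST00000504670.5 was at 0.157, 0.0357 and 0.276 FPKM in controls and at 1, 1.52 and 1.34 with DMAG, 8.23-fold higher (adjusted p = 0.01). The second transcript was 2.57-fold higher, a call lost without DMAG replicate 1 (adjusted p = 0.059). COPB2 mRNA was also higher, from 62.9 ± 5.14 to 75.4 ± 3.81 FPKM (log2 change 0.26, adjusted p = 0.022). That call was lost without DMAG replicate 1, DMAG replicate 3 or control replicate 2 (adjusted p between 0.055 and 0.069) and for its most abundant transcript alone (adjusted p = 0.11). CTB-50L17.9, which has no other name in the table used, rose from 0.243 ± 0.0863 to 2.07 ± 0.613 FPKM (8.52-fold; adjusted p = 0.0037).

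The remaining rises rested on values at or near 0 in controls. PCMTD1-DT ENST00000423716.1 was at 0.467, 0 and 0 FPKM in controls and at 1.26, 1.63 and 0.701 with DMAG (adjusted p = 0.041). Without DMAG replicate 1, 2 or 3 or control replicate 2 or 3 its adjusted p was between 0.071 and 0.12, and after scaling to the same median it was 0.06. RP11-561O23.8 was at 0.124, 0 and 0 FPKM and at 0.756, 0.714 and 0.544 (adjusted p = 0.013; 0.06 and 0.056 without DMAG replicate 1 and 2). TOX-DT ENST00000517898.1 was at 0.0482, 0 and 0.0487 FPKM in controls and at 1.22, 0.722 and 0.974 with DMAG (adjusted p = 0.0045). It is named as divergent from TOX, a nuclear protein of lymphocyte development. TOX mRNA was called lower with DMAG (limma, adjusted p = 0.02). That call was lost without DMAG replicate 1 or 2 or control replicate 3 (adjusted p between 0.061 and 0.068).

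**Figure D4:**
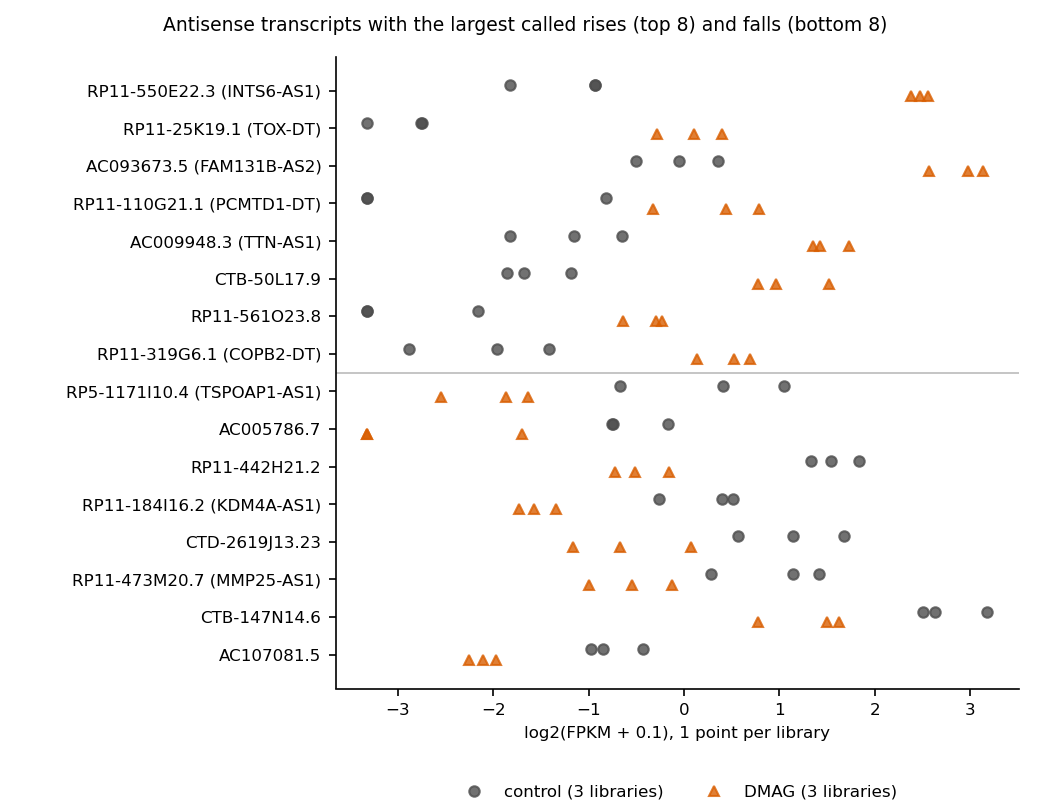
Values in each library for the 8 largest called rises (top) and 8 largest called falls (bottom), 1 transcript per gene, as log2(FPKM + 0.1) with control libraries as grey circles and DMAG libraries as orange triangles. In each of the 16 the 3 DMAG libraries lie on the same side of all 3 controls, and points at the left edge are values of 0.

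Of the 8 largest falls, 3 kept their call without any 1 library. RP11-442H21.2 was at 2.82, 3.48 and 2.41 FPKM in controls and at 0.796, 0.508 and 0.602 with DMAG, 4.57-fold lower (log2 change -2.03, SE 0.223, adjusted p = 0.0037). KDM4A-AS1 (RP11-184I16.2, chr1:43699724-43707341, minus strand), named after the histone demethylase KDM4A, fell in transcript ENST00000434346.1 from 1.22, 0.736 and 1.33 to 0.237, 0.294 and 0.202 FPKM (adjusted p = 0.011). KDM4A mRNA was at 20.8 ± 0.621 and 19.7 ± 0.540 FPKM, not called (adjusted p = 0.18). CTB-147N14.6 fell from 8.98, 6.11 and 5.58 to 2.72, 1.61 and 2.99 FPKM (2.83-fold; adjusted p = 0.014). These 3 transcripts were called lower under every alternative run for single transcripts.

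The other 5 falls lost their call without at least 4 of the 6 libraries in turn. TSPOAP1-AS1 ENST00000579527.5 (RP5-1171I10.4) was at 0.527, 1.97 and 1.23 FPKM in controls and at 0.222, 0.0707 and 0.174 with DMAG, and its adjusted p of 0.024 became 0.056 to 0.069 without DMAG replicate 1, 2 or 3 or control replicate 2 or 3. MMP25-AS1 (RP11-473M20.7), named after a membrane-bound matrix metalloprotease of leukocytes, was at 2.11, 1.12 and 2.57 and at 0.816, 0.585 and 0.403 FPKM (adjusted p = 0.032; 0.053 to 0.095 without DMAG replicate 1, 2 or 3 or control replicate 1 or 3). CTD-2619J13.23 was at 2.20 ± 0.867 and 0.608 ± 0.311 FPKM (adjusted p = 0.029; 0.073 to 0.082 without DMAG replicate 2 or 3 or control replicate 1 or 2). AC107081.5 was at 0.503 ± 0.125 and 0.133 ± 0.0228 FPKM (adjusted p = 0.038; 0.076 to 0.13 without any 1 library). AC005786.7 was at 0.789, 0.498 and 0.493 FPKM in controls and at 0.208, 0 and 0 with DMAG (adjusted p = 0.036; 0.083 to 0.12 without DMAG replicate 2 or 3 or any 1 of the controls). In each of these 5 all DMAG libraries lay below all controls.

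Several antisense genes have more than 1 listed transcript, and a transcript can change while the gene does not. There were 625 genes with 1 transcript and 132 with 2 or more, up to 9. A transcript was higher in 134 genes and lower in 29, and no gene had transcripts called both ways. When transcripts were summed per gene and tested, 159 antisense genes were higher and 36 lower, so some genes were called in this fit only. It has its own estimate of spread and its own adjustment, so a gene with 1 transcript can gain a call at unchanged values. How many of the added calls were in such genes was not counted. Of the 40 multi-transcript genes with a higher transcript, 34 were higher as a gene and 6 were not called. Of the 5 with a lower transcript, 3 were lower and 2 not called.

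TOX-DT is an example of such a gene. Its second transcript ENST00000518993.1 was at 1.10, 1.01 and 1.14 FPKM in controls and at 0.0359, 0.0104 and 0.992 with DMAG (not called, adjusted p = 0.12). The sum of both TOX-DT transcripts was 1.12 ± 0.0959 FPKM in controls and 1.32 ± 0.620 with DMAG (log2 change 0.13, adjusted p = 0.81), with overlapping groups. TSPOAP1-AS1 went further, because the sum of its 3 transcripts was 5.17 ± 0.945 FPKM in controls and 7.08 ± 1.39 with DMAG (log2 change 0.44, adjusted p = 0.11), opposite in sign to its lower transcript. The KDM4A-AS1 sum was 2.95 ± 0.650 and 2.00 ± 0.305 FPKM, not called (adjusted p = 0.083). By contrast the sums of TTN-AS1 (1.09 ± 0.244 to 5.32 ± 0.613 FPKM; adjusted p = 2.7e-04), COPB2-DT (1.09 ± 0.205 to 3.69 ± 0.615; adjusted p = 7.5e-04) and PCMTD1-DT (1.75 ± 0.421 to 3.51 ± 0.979; adjusted p = 0.018) were higher, and that of MMP25-AS1 was lower (6.45 ± 0.737 to 3.50 ± 0.610; adjusted p = 0.0053).

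Of 128 genes with 2 or more tested transcripts, 12 had 2 or more of them higher and none had 2 lower. Only 5 genes with 2 or more listed transcripts had any lower one. Besides INTS6-AS1 the 12 included GABPB1-AS1 (chr15:50354174-50358312, plus strand), named after a subunit of the ETS-family factor GABP. Its main transcript was at 8.74, 8.57 and 8.05 FPKM in controls and at 19.5, 18.0 and 18.8 with DMAG, which put the groups apart at 2.22-fold (log2 change 1.14, SE 0.0813, adjusted p = 0.0011). The sum of both GABPB1-AS1 transcripts rose from 12 ± 1.02 to 24.8 ± 1.23 FPKM (adjusted p = 2.8e-04). GABPB1 mRNA was at 11.9 ± 1.72 and 11 ± 0.417 FPKM, with overlapping groups (adjusted p = 0.43). With DMAG the antisense sum was therefore above the level of the mRNA. RPAP3-DT, beside a gene of an HSP90 co-chaperone, summed to 0.831, 0.829 and 0.909 FPKM in controls and 4.01, 3.90 and 4.83 with DMAG (adjusted p = 1.4e-04), with RPAP3 at 13.6 ± 0.530 and 14.9 ± 0.297 FPKM (adjusted p = 0.059). These genes were picked from the 12 after their values were seen.

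Of the 6 most abundant antisense transcripts, 1 was called. RP5-940J5.9, the highest, averaged 61.3 ± 4.45 FPKM in the controls and 61.1 ± 15.7 FPKM in the DMAG libraries (adjusted p = 0.91). SCARNA9, which carries a guide RNA of Cajal bodies, was at 30.1 ± 3.01 and 30.5 ± 4.02 FPKM (adjusted p = 0.95). MIR142HG (RP5-1171I10.5, chr17:58330888-58332520, minus strand), the precursor of the blood-cell microRNA miR-142, was at 36.1, 42.4 and 40.5 FPKM in controls and at 30.1, 28.4 and 30.2 with DMAG. It was 1.34-fold lower (log2 change -0.42, SE 0.0831, adjusted p = 0.017), with adjusted p of 0.05 to 0.056 and no call without DMAG replicate 1, 2 or 3 or control replicate 2 or 3. In RefSeq it lies within TSPOAP1-AS1 on the opposite strand.

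The other abundant transcripts were not called. MIR223HG (RP6-159A1.4), the precursor of the myeloid microRNA miR-223, was at 9.99, 38.9 and 9.22 FPKM in controls and at 13.3, 55.5 and 50.5 with DMAG, so each group held both low and high libraries (adjusted p = 0.32). TUBA1B-AS1 (RP11-386G11.10), beside an alpha-tubulin gene, was at 42.4, 35.7 and 32.4 and at 21.6, 14.7 and 27.9 FPKM, just above the threshold at an adjusted p of 0.05 to 2 digits. It passed at 0.032 without DMAG replicate 3 and at 0.023 after scaling to the same median. TUBA1B mRNA fell from 1196 ± 6.39 to 1053 ± 30.6 FPKM (adjusted p = 0.012). ZFAS1, a host of small nucleolar RNAs, had 9 transcripts, and none was called (limma; 1 lower at an unadjusted p under 0.05). Its main transcript was at 37.1, 32.9 and 31.0 FPKM in controls and at 28.0, 28.1 and 27.0 with DMAG (adjusted p = 0.068; 0.015 after scaling to the same median).

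Of 18 antisense or host RNAs listed by name because they are known from other studies, 6 were among the members. Besides ZFAS1 these were CDKN2B-AS1, PSMA3-AS1, ZEB1-AS1, TMPO-AS1 and MCM3AP-AS1. CDKN2B-AS1 (chr9:21994791-22128142, plus strand), which crosses a tumour suppressor locus, had 3 transcripts, none called and 0 at an unadjusted p under 0.05 (limma), with its main one at 1.31 ± 0.457 and 1.44 ± 0.365 FPKM. TMPO-AS1 was at 8.41 ± 0.0736 and 9.55 ± 0.346 FPKM (adjusted p = 0.18), with every DMAG library above the controls, and MCM3AP-AS1 had no call (limma; 0 of 2 transcripts tested at an unadjusted p under 0.05). PSMA3-AS1, named after a proteasome subunit, had 1 of 7 transcripts higher, at 11.5, 11.5 and 10.3 FPKM in controls and at 17.5, 16.4 and 14.5 with DMAG (log2 change 0.54, adjusted p = 0.015). That call was lost without DMAG replicate 1 or 2 (adjusted p = 0.056 and 0.052) and after scaling to the same median (adjusted p = 0.11). The sum of the 7 PSMA3-AS1 transcripts was higher, from 32.4 ± 2.11 to 43.2 ± 2.83 FPKM (limma, adjusted p = 0.0076). PSMA3 mRNA fell from 142 ± 3.19 to 101 ± 3.63 FPKM (adjusted p = 2.6e-04). ZEB1-AS1, beside a repressor of epithelial genes, had 1 of 2 transcripts higher, at 0.529, 0.739 and 0.522 FPKM and at 1.06, 1.21 and 1.85. Its adjusted p of 0.038 rose to between 0.053 and 0.1 without any 1 library, and to 0.084 after scaling. The sum of both ZEB1-AS1 transcripts was higher, from 0.674 ± 0.131 to 1.53 ± 0.415 FPKM (limma, adjusted p = 0.021). Whether the PSMA3-AS1 and ZEB1-AS1 sums keep their calls without 1 library was not tested.

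By the symbols as deposited, 32 antisense symbols with 45 transcripts ended in -AS or -AS and a number, and 30 of the genes of that name were listed among the mRNAs. In 26 pairs both members were tested. The antisense RNA was higher in 6 of these and lower in none (limma; at an unadjusted p under 0.05, 12 of their 38 tested transcripts were higher and 3 lower). Over all annotated lncRNA transcripts tested, 12.7% were called higher and 3.42% lower. A symbol counted as called when any of its transcripts was, so the shares are not directly comparable. Among the 952 antisense transcripts tested, 328 had an unadjusted p under 0.05 in either direction. The partner gene was higher in 6, lower in 7 and not called in 13, so 50% were called, against 48.6% of all mRNA genes tested. Antisense RNAs were the scarcer member in 24 of the 26 pairs, and the partner's FPKM was at the median 21.3 times that of the summed antisense transcripts.

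UCKL1-AS1 and UCKL1, a uridine-cytidine kinase-like enzyme, were the only pair with both members called, and they went opposite ways. UCKL1-AS1 was at 0.318, 0.434 and 0.414 FPKM in controls and at 1.21, 1.21 and 1.09 with DMAG, 3.01-fold higher (log2 change 1.38, SE 0.222, adjusted p = 0.009). UCKL1 was at 23.4, 22.6 and 22.8 FPKM and at 9.22, 10.2 and 10.7, 2.29-fold lower (log2 change -1.12, SE 0.0587, adjusted p = 6.4e-05). Neither member's groups overlapped. In the other 5 pairs with a higher antisense RNA, GABPB1-AS1, SEPSECS-AS1, CTBP1-AS1, ZSWIM8-AS1 and ZEB1-AS1, the partner was not called. The CTBP1-AS1 call was lost without DMAG replicate 1, 2 or 3 or control replicate 1 or 3 (adjusted p between 0.055 and 0.072) and in its gene sum, and that of ZSWIM8-AS1 without DMAG replicate 1, 2 or 3 (adjusted p between 0.053 and 0.064). SEPSECS-AS1, named after the enzyme that makes selenocysteine on its tRNA, summed to 2.91 ± 0.357 and 5.94 ± 0.159 FPKM (adjusted p = 0.0012), with SEPSECS at 9.76 ± 0.944 and 11.3 ± 0.184 (adjusted p = 0.065).

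Some antisense RNAs had a partner too low to test or not listed. C21orf62-AS1 was higher, at 0.270 ± 0.0542 and 1.02 ± 0.214 FPKM (adjusted p = 0.011; 0.051 without DMAG replicate 1). GAS6-AS1 was lower, at 18.5, 18.9 and 19.3 FPKM in controls and at 11.5, 13.0 and 13.1 with DMAG (1.51-fold; log2 change -0.59, adjusted p = 0.0074). GAS6, a ligand of the TAM receptor kinases, was at only 0.459 ± 0.0698 and 0.287 ± 0.0436 FPKM, so this antisense RNA was the far more abundant member in both groups. TRG-AS1, in the T-cell receptor gamma locus, was lower as well, at 6.46 ± 0.468 and 4.08 ± 0.304 FPKM (adjusted p = 0.011).

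Many symbols in the files are older clone names, so a second reading used present gene names for 738 of the 757 antisense genes. This reading was added after the files had been examined. It gave 329 symbols ending in -AS, -AS and a number, or -DT, with 505 transcripts, and 278 pairs with both members tested. The antisense RNA was higher in 69 and lower in 5. A symbol counted as called when any of its transcripts was, so these counts cannot be set directly against the 12.7% higher and 3.42% lower of single annotated lncRNA transcripts. The partner was higher in 63, lower in 78 and not called in 137, so 50.7% were called. Of the 74 pairs with a called antisense RNA, 58.1% had a called partner, where 48.6% of all mRNA genes tested were called.

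When both members were called, same and opposite directions were about as frequent with all 6 libraries and no blocking on replicate number. There were 21 pairs in the same direction, 18 with both higher and 3 with both lower, and 22 in opposite directions, each with the antisense RNA higher and the partner lower. Only 5 antisense RNAs of these pairs were lower, so few could have been lower beside a higher partner. Without DMAG replicate 1 these counts fell to 6 and 11, and without DMAG replicate 2 to 9 and 15. Without DMAG replicate 3 they were 10 and 15, and without control replicate 3 they were 14 and 14. Blocking on replicate number gave 10 and 17, and scaling to the same median 22 and 18. Pairs named -AS had 17 in the same and 16 in opposite directions, and pairs named -DT had 4 and 6. These name endings do not sort the pairs by position. The antisense RNA was below its partner in 258 of the 278 pairs, with a median ratio of 13.7.

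**Figure D5:**
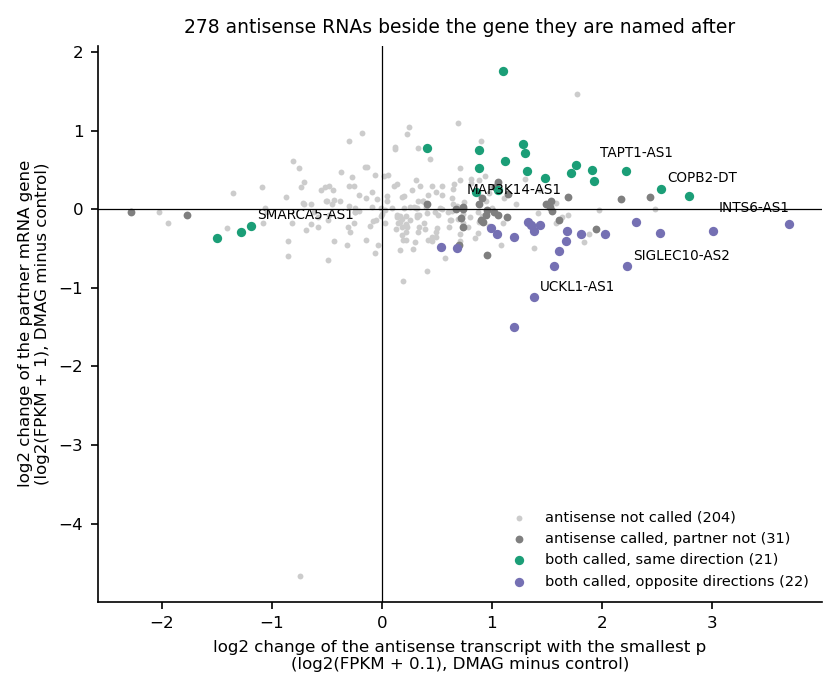
Log2 change (DMAG minus control) of the antisense transcript with the smallest p (x axis) and of the mRNA gene it is named after (y axis) for 278 pairs by present names. Pairs with both members called lie at the upper right (18), lower left (3) and lower right (22), and none of them at the upper left.

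Of the pairs with both members higher, TAPT1-AS1 went from 0.358, 0.359 and 0.377 FPKM to 1.79, 1.86 and 1.35 (4.57-fold; adjusted p = 0.0037), and TAPT1 from 9.01 ± 0.287 to 13.1 ± 0.736 FPKM (adjusted p = 7.7e-04). MAP3K14-AS1 ENST00000590100.5 went from 1.83, 0.884 and 1.37 to 5.14, 4.13 and 4.40 FPKM (adjusted p = 0.0078). MAP3K14, the NIK kinase of non-canonical NF-kB signalling, rose from 1.42 ± 0.236 to 2.33 ± 0.178 FPKM (adjusted p = 0.0074; 0.37 for its most abundant transcript alone), and the antisense sum of 2.46 ± 0.374 and 7.65 ± 1.10 FPKM lay above it in both groups. HERPUD2-AS1 went from 1.59, 1.45 and 1.59 to 3.28, 2.99 and 2.58 FPKM (1.91-fold; adjusted p = 0.01). Across the shared promoter bases shown above, HERPUD2, a ubiquitin-like membrane protein, rose 1.49-fold from 9.72 ± 0.348 to 14.5 ± 0.239 FPKM (adjusted p = 2.8e-04).

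ARHGEF2-AS2 rose from 0.484 ± 0.0908 to 1.31 ± 0.148 FPKM (adjusted p = 0.012; 0.053 without DMAG replicate 1). ARHGEF2, a microtubule-bound activator of RhoA, rose 1.78-fold from 99.2 ± 0.852 to 177 ± 1.35 FPKM (adjusted p = 2.5e-05). ANXA2R-AS1 was at 1.23 ± 0.0766 and 2.87 ± 0.819 FPKM (adjusted p = 0.017; 0.055 without DMAG replicate 2 and 0.05, no longer called, without control replicate 1) and ANXA2R rose 1.65-fold. ADGRL1-AS1 ENST00000588387.1 rose 2.72-fold (adjusted p = 0.015; 0.05 to 0.061, not called, without DMAG replicate 1, 2 or 3), yet its gene sum was at 2.11 ± 0.441 and 2.43 ± 0.162 FPKM (adjusted p = 0.44). ADGRL1, an adhesion receptor, rose 1.81-fold.

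PCGF3-AS1 ENST00000503571.5 rose 2.85-fold (adjusted p = 0.016; 0.054 to 0.057 without DMAG replicate 1, 2 or 3), and PCGF3, a Polycomb subunit, 1.35-fold (adjusted p = 0.0012; 0.058 for its most abundant transcript alone). A second PCGF3-AS1 transcript, ENST00000503405.1, had the largest change of any member, from 0.300, 0 and 0 FPKM to 8.95, 8.53 and 0.311. It was not called (log2 change 4.32, SE 1.23, adjusted p = 0.057), and DMAG replicate 3 lay beside the controls. MMP25-AS1, given above among the falls, had its partner lower too, with MMP25 at 0.890 ± 0.131 and 0.460 ± 0.145 FPKM (adjusted p = 0.024; 0.06 to 0.07 without DMAG replicate 1 or 3 or control replicate 1 or 2). SMARCA5-AS1 was also lower beside a lower partner, at 2.10, 1.56 and 1.62 FPKM and at 0.764, 0.595 and 0.787 (2.46-fold; adjusted p = 0.012). SMARCA5, a chromatin remodelling motor, fell 1.16-fold from 28.7 ± 0.543 to 24.7 ± 0.716 FPKM (adjusted p = 0.0053).

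Of the pairs in opposite directions, PYCARD had the largest fall of a partner. PYCARD, the adaptor ASC of inflammasomes, was at 42.8, 41.5 and 39.2 FPKM in controls and at 14.6, 16.1 and 11.4 with DMAG, 2.93-fold lower (log2 change -1.50, SE 0.118, adjusted p = 2.2e-04). PYCARD-AS1 was at 1.41, 1.53 and 1.60 and at 3.59, 3.73 and 3.46 FPKM, 2.37-fold higher (log2 change 1.20, SE 0.127, adjusted p = 0.0037). Both members' groups lay apart. SIGLEC10, an inhibitory sialic acid receptor of leukocytes, fell from 2.54 ± 0.298 to 1.14 ± 0.0841 FPKM (adjusted p = 8.8e-04; 0.82 for its most abundant transcript alone). SIGLEC10-AS2 rose from 0.308, 0.561 and 0.421 to 2.10, 2.07 and 2.93 FPKM (5.50-fold; adjusted p = 0.0037), which put it above its partner with DMAG.

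MZF1-AS1 rose from 0.698 ± 0.0449 to 2.33 ± 0.202 FPKM (3.34-fold; adjusted p = 0.0037), while MZF1, a zinc finger factor of myeloid cells, fell from 6.58 ± 0.108 to 4.25 ± 0.146 FPKM (adjusted p = 4.5e-04). SELENOO-AS1 rose from 0.374 ± 0.0784 to 1.82 ± 0.0895 FPKM (4.85-fold; adjusted p = 0.0037), while the mitochondrial selenoprotein gene SELENOO fell from 14.8 ± 0.534 to 11.7 ± 0.594 FPKM (adjusted p = 0.0036). SLC25A25-AS1 rose from 2.55 ± 0.201 to 5.38 ± 0.129 FPKM (2.11-fold; adjusted p = 0.0037), while the mitochondrial carrier gene SLC25A25 fell from 7.61 ± 0.247 to 5.93 ± 0.220 FPKM (adjusted p = 0.0039). For the most abundant transcript alone, MZF1, SELENOO and SLC25A25 were not called (adjusted p = 0.11, 0.18 and 0.38).

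The partners with the largest changes were CYP1B1 and VIM. CYP1B1, a cytochrome P450, was lower, from 110 ± 2.78 to 3.35 ± 0.0805 FPKM, and CYP1B1-AS1 (listed as C2orf58) was at 0.858, 0.445 and 0.821 and at 0.281, 0.382 and 0.459 FPKM, with overlapping groups (adjusted p = 0.17). VIM, which encodes the filament protein vimentin, rose 3.48-fold from 32.5 ± 0.442 to 113 ± 9.63 FPKM. VIM-AS1 was at 0.977 ± 0.261 and 2.18 ± 0.304 FPKM, 2.23-fold higher (adjusted p = 0.021; 0.067 and 0.07 without DMAG replicate 2 and 3, and 0.051 after scaling to the same median). These pairs were chosen after their values were seen.

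Positions were found for 229 of the pairs in RefSeq's annotation of GRCh38.p14. In 138 pairs the antisense RNA and its partner started within 1000 bases of each other on opposite strands, with a median distance of 196 bases, and 77 of these had gene models that did not overlap. In 84 the models overlapped with starts farther apart (median 31972 bases), in 6 they were apart and in 1, FAM131B-AS2, they lay on the same strand. Of the 133 close pairs with both members tested, 31 had the antisense RNA higher and 1 lower, with 7 pairs in the same and 9 in opposite directions. Of the 63 overlapping pairs tested, 17 had it higher and 1 lower, with 7 in the same and 5 in opposite directions. Over all 200 positioned pairs tested, 49 had the antisense RNA higher and 2 lower, with 14 in the same and 15 in opposite directions. PYCARD-AS1 and ARHGEF2-AS2 belong to the close pairs but overlap their partner by 876 and 979 bases, and MZF1-AS1 and MAP3K14-AS1 to those that overlap with distant starts.

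The promoter windows of these antisense genes were rich in GC. Over the 229 antisense windows of 300 bases the median GC content was 65.3% with 26 CG dinucleotides, against 58.7% and 14 for all 35116 RefSeq promoters. GGGCGG on either strand was found in 66.4% of the antisense windows and in 45% of all promoters, CCAAT in 38% and 34.6%, and TATAAA in 4.37% and 11.5%. The partners' windows had 67.2%, 38.4% and 5.24%. In 90 close pairs the 2 windows overlap, so both sets contain some of the same bases. The 55 antisense genes with a higher transcript had 70.9%, 36.4% and 1.82%, near the values of all 229.

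Genes whose products degrade, terminate or sense antisense RNA were read in the mRNA values, and their part in the antisense changes was not tested. Of 83 listed, 82 were tested, and 9 were higher, 29 lower and 44 not called, with a median log2 change of -0.06. For the most abundant transcript of each gene alone, 18 were lower. Among all mRNA genes tested 22.4% were higher and 26.1% lower. Of 24 genes of the nuclear exosome and its adaptors 11 were lower and 1 higher, with a median of -0.17. The exosome nuclease DIS3 was at 35.5, 33.7 and 35.4 FPKM in controls and at 22.9, 26.4 and 21.3 with DMAG, 1.48-fold lower (log2 change -0.55, SE 0.0788, adjusted p = 0.002). EXOSC5, a subunit of the exosome ring, fell 1.65-fold from 33.1 ± 3.99 to 20.0 ± 2.69 FPKM (adjusted p = 0.0042), and the poly(A) polymerase TENT4B 1.21-fold (adjusted p = 0.0056). MTREX, the helicase that feeds the exosome, was at 24.3 ± 0.827 and 22.8 ± 0.639 FPKM and not called (adjusted p = 0.13).

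Of 14 Integrator genes 6 were lower and none higher (limma; 1 at an unadjusted p under 0.05), with a median of -0.14. INTS1, INTS3, INTS10 and INTS13 fell 1.25-, 1.26-, 1.18- and 1.24-fold (adjusted p between 0.0042 and 0.015), beside the 1.15-fold of INTS6 given above. Cleavage, polyadenylation and termination genes were mixed, with 4 of 20 higher and 6 lower. PCF11, a termination factor, rose 1.57-fold and CSTF1 1.46-fold when transcripts were summed, but the most abundant transcript of each alone had log2 changes of -0.08 and -0.22 (adjusted p = 0.54 and 0.064). CSTF2T rose 1.39-fold, while CPSF4, a subunit that binds the polyadenylation signal, fell 1.51-fold (adjusted p = 0.0052; 0.31 for its most abundant transcript alone).

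Of 24 tested genes that edit, sense or process double-stranded RNA, 4 were higher and 6 lower. The helicase DHX9, which unwinds paired RNA, was at 109, 112 and 112 FPKM in controls and at 69.4, 71.1 and 71.3 with DMAG, 1.57-fold lower (log2 change -0.65, SE 0.0302, adjusted p = 4.8e-05). DICER1 fell 1.12-fold and the Dicer partner TARBP2 1.24-fold (adjusted p = 0.018 and 0.0058; 0.062 for the most abundant TARBP2 transcript alone). The RNA-binding protein gene STAU2 rose 1.3-fold and MAVS, the signalling hub downstream of RNA sensors, 1.18-fold (adjusted p = 0.0023 and 0.0038; 0.12 and 0.066 for the most abundant transcript alone). ADAR, the adenosine deaminase of double-stranded RNA, was at 52.1 ± 9.40 and 51.5 ± 9.82 FPKM, with overlapping groups (adjusted p = 0.94).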

How the data were processed

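The authors deposited FPKM values per transcript for annotated lncRNAs and mRNAs. HISAT2 2.0.4, Bowtie, StringTie 1.3.3 and GRCh38 are listed without roles, per the submitters' processing notes. Libraries were depleted of ribosomal RNA and made with a dUTP second strand, per the labels' protocols. The counting rules and the read depth are unknown here. The tests used limma 3.58.1 (R 4.3.3, empirical Bayes with a mean trend). Annotated lncRNA transcripts entered as log2(FPKM + 0.1) when their mean reached 0.1 FPKM. For mRNAs, transcripts were summed per gene and entered as log2(FPKM + 1) when the mean reached 0.5 FPKM, which kept 10394 of 19659 genes. Both scales understate the fold of low features, and folds in the text are ratios of mean FPKM. P-values were adjusted by Benjamini-Hochberg over each table and called under 0.05. In simulated data for 2746 lncRNA transcripts, 200 of them changed, 41% of the features changed by 1 on the log2 scale were called. Of those changed by 2, 79% were called. For 10394 mRNA genes, also with 200 changed, these shares were 91% and 100%. False calls made up 3.23% and 6.83% of the calls in the lncRNA and mRNA simulations. The real data had more features called, 442 and 5050, so these shares may not carry over to them.

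The named transcripts were the 8 called rises and 8 called falls with the largest change, 1 per gene, whose groups did not overlap and whose higher group averaged 0.5 FPKM. Added to them were the 6 most abundant, the 8 same-direction and 6 opposite pairs with the smallest p, a fixed list of 18 known RNAs and up to 4 genes per RNA surveillance group. Others were chosen after their values were seen, among them CYP1B1-AS1, GABPB1-AS1, the second PCGF3-AS1 transcript and the uncalled surveillance genes. The members and lists were chosen with earlier results of these data known. Gene positions and promoters came from RefSeq (GRCh38.p14), matched by present symbol. The alternatives were other pseudocounts and filters, scaling to the same median, sums per gene, the most abundant mRNA transcript, blocking on replicate number and dropping 1 library at a time. Small RNA samples were not used here.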

Additional observations from a re-analysis of the deposited data

How the results depend on the processing

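The antisense counts, 148 higher and 29 lower, were 90 and 58 after scaling to the same median and 89 and 13 with a replicate block, and ran over 67 to 115 and 12 to 24 when 1 library was left out. Other pseudocounts and filters gave 134 to 156 and 25 to 31. Summed per gene, 159 antisense genes were higher and 36 lower. Deviations of same-numbered libraries correlated at -0.01 to 0.04, so no shared deviation was seen. This cannot tell whether same-numbered libraries were handled together, which the labels do not say. With the block 101 of 112 named features kept their side of the threshold and 11 lost the call. By deposited symbols, the partner counts of 6 higher and 7 lower were 4 and 4 for the most abundant transcript, and ran over 4 to 8 and 5 to 7 under the other alternatives. The 0 pairs in the same direction became 3 after scaling, 1 without a filter and 1 with sums per gene, and 0 to 1 without 1 library. The 1 opposite pair became 3 with sums per gene and stayed at 1 without any 1 library. By present names, 21 same-direction pairs became 10 with the replicate block (opposite 17) and 6 to 14 without 1 library, and 22 opposite pairs 11 to 17. The 29 lower surveillance genes became 18 for the most abundant transcript. That setting reversed CSTF1 (log2 change -0.22), PCF11 (-0.08), EXOSC9 (0.27) and INTS6 (0.03). Of 86 named features called, 47 kept their call under every alternative run for them. The causes of these moves were not tested. With 3 libraries per group and unknown depth, small changes of scarce transcripts were not resolved.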
